A study of Mus musculus with 12 samples.

Results

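Perforin and the granzymes are the proteins with which cytotoxic lymphocytes kill, and 10 of their genes were followed here across 12 arrays of mouse spleen T cells. The 10 genes are Prf1, which encodes perforin, and Gzma, Gzmb, Gzmc, Gzmd, Gzme, Gzmf, Gzmg, Gzmk and Gzmm. They are the genes of this family that were listed for study, and every probe set annotated to 1 of them alone was taken, which gave 12 probe sets for 10 of the 18193 genes measured. Gene expression was profiled with Affymetrix whole-genome mouse arrays, 1 array per sample, in 4 groups of cells from female C57BL/6 mice aged 8 to 12 weeks by the sample labels. The 5 samples of CD8+ NKT-like cells were spleen CD8+ T cells enriched by magnetic negative selection and expanded with beads coated with anti-CD3 and anti-CD28 antibodies and high dose IL-2. The labels describe these cells as having suppression function. The 3 samples of cultured CD4+ cells were flow-sorted and expanded by the same protocol, and the labels describe them as less suppressive. The 2 samples of naïve CD8+ cells were uncultured, and the 2 samples of activated CD8+ cells had been stimulated with low dose soluble anti-CD3 and anti-CD28 antibodies. No sample carried a transgene or a deletion. Cell lineage and sorting method differ together between the CD8+ and CD4+ cultures and cannot be told apart, and the sources do not say whether a sample pooled several mice.

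Cytotoxic T cells and natural killer cells store perforin and granzymes in lytic granules and release them where they touch a target cell. Perforin opens pores in the target membrane, and granzymes are serine proteases that pass into the target and cleave proteins there. Granzymes A and K are tryptases, granzyme B cuts after aspartate and can start apoptosis through caspases, and granzyme M prefers methionine. Granzymes C to G form a rodent expansion next to the granzyme B gene, and less is known of their substrates. Naïve CD8+ cells hold little of these transcripts, and stimulation through the T cell receptor together with IL-2 is known to induce them.

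All values are log2 signals, and a fold change is the ratio of the group means after undoing the log2. A gene was called higher or lower when its q-value, the false discovery rate over all probe sets tested, was 0.01 or less. The labels held for the lineage markers Cd8a and Cd4. Zbtb7b, also listed as a CD4+ marker, did not separate the groups, with means of 8.61 in CD8+ NKT-like and 8.44 in cultured CD4+ cells. Cd8a ran from 9.94 to 11.72 in the 9 arrays of the CD8+ groups and from 6.42 to 6.92 in the cultured CD4+ arrays, while Cd4 ran from 9.82 to 10.10 in the latter and reached no more than 7.20 elsewhere. Ncr1, a receptor that defines natural killer cells, stayed between 5.91 and 6.36 on every array. Of the other natural killer cell markers measured, Itga2 and Klra8 also varied little, but Klrk1, Klrd1 and Eomes differed between groups. Means in CD8+ NKT-like, cultured CD4+, naïve and activated cells were 10.17, 7.10, 7.58 and 8.50 for Klrk1. For Klrd1 they were 11.38, 5.64, 11.40 and 7.79 in the same order. The naïve arrays were higher in some markers of other cells. The summed signal of 4 measured B cell markers was 607 and 1130 there against 265 to 288 in the CD8+ NKT-like arrays, with 3 of the 4 lower in the latter, and that of 4 red cell precursor markers was 2430 and 4390 against 286 to 308, with 2 of the 4 lower. That second sum rests on Klf1 and Ermap, at means of 11.09 and 9.93 in the naïve arrays, whereas the globin gene Hba-a1 and the heme synthesis gene Alas2 read 5.45 and 5.47 there and 5.28 and 5.47 in CD8+ NKT-like arrays, near background. The part of these cells in the granzyme values was not tested. In bulk samples such as these, fewer cells expressing a gene and less RNA per cell cannot be told apart.

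As shown in the plot of the 10 genes on every array, 9 of the 10 were higher in the CD8+ NKT-like cells than in naïve CD8+ cells, and none was lower. Over all genes, 11.0% were called higher and 6.61% lower in the same comparison. The median log2 difference over the 10 genes was 6.35, against -0.05 over all genes. The exception was Gzmm, whose lower value did not pass at q in limma. At an unadjusted p under 0.05 the counts were 9 higher and 1 lower.

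**Figure D1:**
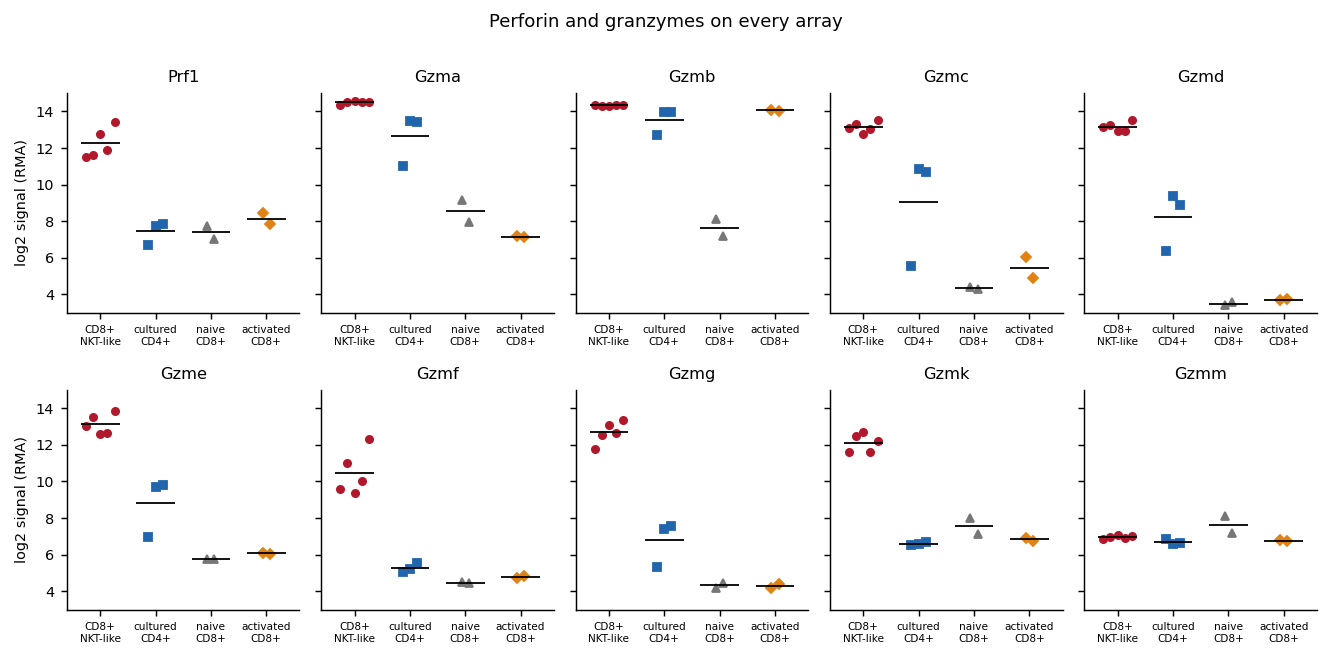
Log2 signal of each gene (vertical axis) on each of the 12 arrays, by group (horizontal axis), with replicates in order from left to right and a black line at the group mean. In the 5 CD8+ NKT-like arrays Gzmd lies between 12.92 and 13.53, whereas the naïve arrays lie at 3.42 and 3.58, and in Gzmb the activated arrays at 14.04 and 14.06 approach the CD8+ NKT-like arrays.

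Prf1, the pore former, was high in CD8+ NKT-like cells alone. The 5 CD8+ NKT-like arrays read 11.49, 11.61, 12.79, 11.89 and 13.45. The cultured CD4+ arrays read 6.72, 7.73 and 7.87, the naïve arrays 7.73 and 7.05, and the activated arrays 8.44 and 7.84. Every CD8+ NKT-like array lay above every other array by a wide margin, and the remaining 3 groups lay close together. Apart from the first activated array, those 3 groups lay within the range of 12 genes not expected in T cells, 3.76 to 7.91. The size of the ratios that follow therefore depends on array background. The mean of 12.25 ± 0.84 (SD, n = 5) was 29.0-fold that of naïve cells (95% interval 13.3 to 63.3, q = 4.8e-05), 28.0-fold that of cultured CD4+ cells (14.2 to 55.4, q = 9.6e-05) and 17.2-fold that of activated cells (7.90 to 37.6, q = 0.00059). Cultured CD4+ cells did not pass against naïve cells (1.03-fold, interval 0.442 to 2.43, q = 0.39), nor did activated cells (1.68-fold, 0.662 to 4.28, q = 0.33). Without the second activated array the difference from activated cells was no longer called (q = 0.015). A second Prf1 probe set stayed between 5.66 and 5.96 on all 12 arrays and was called in none of the 6 comparisons, so that a mean of both probe sets gave 5.21-fold over naïve cells.

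Gzma, a tryptase gene, ran at the top of the scale in CD8+ NKT-like cells and was also high in cultured CD4+ cells. The CD8+ NKT-like arrays read 14.37, 14.52, 14.55, 14.51 and 14.49, at most 0.13 below the highest value of the array. The cultured CD4+ arrays read 11.00, 13.49 and 13.45, the naïve arrays 9.15 and 7.95, and the activated arrays 7.21 and 7.11. The order of the groups was therefore CD8+ NKT-like, cultured CD4+, naïve and activated, with no overlap between neighbours. Both activated arrays lie within the range of the genes not expected in T cells, and the second naïve array just above it. The order of naïve and activated cells, and the size of all Gzma ratios to either, therefore depend on array background. The mean in CD8+ NKT-like cells was 61.5-fold that of naïve cells (26.3 to 144, q = 2.2e-05), or 93.2-fold without the first naïve array and 40.6-fold without the second. It was 161-fold that of activated cells (68.7 to 376, q = 2.3e-05). Against cultured CD4+ cells the 3.60-fold difference did not pass (1.71 to 7.56, q = 0.052). Nor did the lower value of activated against naïve cells (0.383-fold, 0.139 to 1.06, q = 0.15). That last difference was called without the first cultured CD4+ array (q = 0.0071), which is in neither group but enters the shared estimate of spread. Values this near the upper end of the scale can compress, so a difference between 2 high groups may be understated.

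Gzmk, the neighbour of Gzma on chromosome 13 and also a tryptase gene, followed another order. The CD8+ NKT-like arrays read 11.59, 12.49, 12.72, 11.61 and 12.22, against 6.53, 6.56 and 6.70 in cultured CD4+ arrays, 8.03 and 7.15 in naïve arrays and 6.92 and 6.75 in activated arrays. It was high in CD8+ NKT-like cells alone, and here the cultured CD4+ cells read lowest. Apart from the first naïve array, the values outside CD8+ NKT-like cells lie within the range of the 12 genes not expected in T cells. The order of these lower groups, and the size of the ratios that follow, therefore depend on array background. The CD8+ NKT-like mean was 46.3-fold that of cultured CD4+ cells (30.5 to 70.3, q = 8.3e-07), 39.2-fold that of activated cells (24.3 to 63.3, q = 5.3e-06) and 23.3-fold that of naïve cells (14.4 to 37.5, q = 2.6e-06). Cultured CD4+ cells lay at 0.502-fold of naïve cells, which did not pass (0.298 to 0.847, q = 0.025).

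Gzmb was the only gene of the 10 called higher in activated than in naïve CD8+ cells. The CD8+ NKT-like arrays read 14.33, 14.32, 14.32, 14.38 and 14.37, the activated arrays 14.06 and 14.04, the cultured CD4+ arrays 12.71, 13.99 and 13.95, and the naïve arrays 8.10 and 7.17. All 3 stimulated groups were thus far above the naïve cells and close to each other. The rise over naïve cells was 105-fold in CD8+ NKT-like cells (64.6 to 170, q = 1.4e-07), 85.6-fold in activated cells (48.0 to 152, q = 2.8e-06) and 60.2-fold in cultured CD4+ cells (35.6 to 102, q = 8.5e-07). These 3 comparisons share the naïve arrays. CD8+ NKT-like cells exceeded activated cells by 1.22-fold (0.754 to 1.98, q = 0.41) and cultured CD4+ cells by 1.74-fold (1.14 to 2.65, q = 0.14), and neither passed. The CD8+ NKT-like arrays lay at most 0.23 below the array maximum, and the activated arrays 0.35 and 0.49 below it. Values this high can compress, so the differences between the stimulated groups may be understated. The second naïve array lies within the range of the genes not expected in T cells. The size of the ratios to naïve cells therefore depends on array background.

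Gzmd showed the largest difference of the 10 genes between CD8+ NKT-like and naïve cells. Its CD8+ NKT-like arrays read 13.14, 13.24, 12.92, 12.93 and 13.53, its cultured CD4+ arrays 6.37, 9.38 and 8.90, its naïve arrays 3.42 and 3.58, and its activated arrays 3.67 and 3.75. The cultured CD4+ cells lay between the other groups, and the activated cells did not rise with the expanded ones. The CD8+ NKT-like mean of 13.15 ± 0.25 (SD, n = 5) was 806-fold the naïve mean (325 to 2000, q = 1.1e-06), 696-fold the activated mean (281 to 1720, q = 6.7e-06) and 30.7-fold the cultured CD4+ mean (13.9 to 67.7, q = 2.3e-04). A second Gzmd probe set, which can bind several sequences, gave 835-fold over naïve cells and 32.4-fold over cultured CD4+ cells. The naïve and activated values lie below the range of 12 genes not expected in T cells, 3.76 to 7.91, so these ratios depend on array background and their size is uncertain.

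Gzmc, Gzme, Gzmf and Gzmg, which lie near Gzmd on chromosome 14, had the same order of CD8+ NKT-like cells first and cultured CD4+ cells next. Gzmc read 13.10, 13.30, 12.78, 13.04 and 13.55 in CD8+ NKT-like arrays, 5.56, 10.83 and 10.71 in cultured CD4+ arrays, 4.38 and 4.32 in naïve arrays and 6.02 and 4.88 in activated arrays. Gzmg read 11.78, 12.53, 13.07, 12.66 and 13.36, then 5.32, 7.42 and 7.58, then 4.20 and 4.44, and then 4.19 and 4.38 in the same order of groups. In both genes the CD8+ NKT-like arrays were clear of all others, and in Gzmc the first cultured CD4+ array fell between the activated arrays. Against naïve cells the CD8+ NKT-like mean was 446-fold for Gzmc (82.9 to 2400, q = 0.00014) and 329-fold for Gzmg (142 to 760, q = 1.7e-06). Gzme read 13.04, 13.53, 12.57, 12.67 and 13.87 in CD8+ NKT-like arrays and from 5.74 to 6.08 in naïve and activated arrays, a 166-fold difference from naïve cells (62.6 to 443, q = 1.3e-05). Gzme is measured by a single probe set that can bind several sequences, so it may share signal with its close relative Gzmd. Gzmf read 9.58, 10.99, 9.38, 10.004 and 12.33 in CD8+ NKT-like arrays and no more than 5.55 elsewhere, 63.5-fold over naïve cells (24.5 to 165, q = 4.5e-05). The naïve and activated values of all 4 genes lie inside the range of the 12 genes not expected in T cells. So do the cultured CD4+ values of Gzmf and Gzmg, so that these ratios too depend on array background. Gzmf was the member of this cluster in which cultured CD4+ cells did not pass against naïve cells (1.76-fold, 0.621 to 4.98, q = 0.17).

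The plot of the chromosome 14 genes in their order shows where along the cluster the high values lie. From one end the measured genes are Cma1, Mcpt1, Mcpt2, Mcpt4, Mcpt8, Ctsg, Gzme, Gzmd, Gzmg, Gzmn, Gzmf, Gzmc and Gzmb, where the first 6 encode proteases of mast cells, basophils and neutrophils. Gzmn, singled out for its place between Gzmg and Gzmf, is known as a testis granzyme. It read from 4.66 to 4.99 in CD8+ NKT-like arrays and from 4.46 to 4.69 elsewhere, a 1.24-fold difference from naïve cells that did not pass (1.04 to 1.48, q = 0.03). Of 9 measured protease relatives at the granzyme loci, none was called higher in CD8+ NKT-like than in naïve cells and 1 was lower, Prtn3 on chromosome 10, at 0.682-fold (0.567 to 0.821, q = 0.0035). At an unadjusted p under 0.05 the counts were 3 and 2, and the median log2 difference was 0.04. Mcpt8 and Ctsg, singled out after their values were seen, ran from 7.06 to 9.38 and from 7.13 to 8.77 in CD8+ NKT-like arrays, against no more than 6.23 and 6.79 in naïve arrays, and did not pass (4.14-fold, q = 0.013, and 2.34-fold, q = 0.017).

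**Figure D2:**
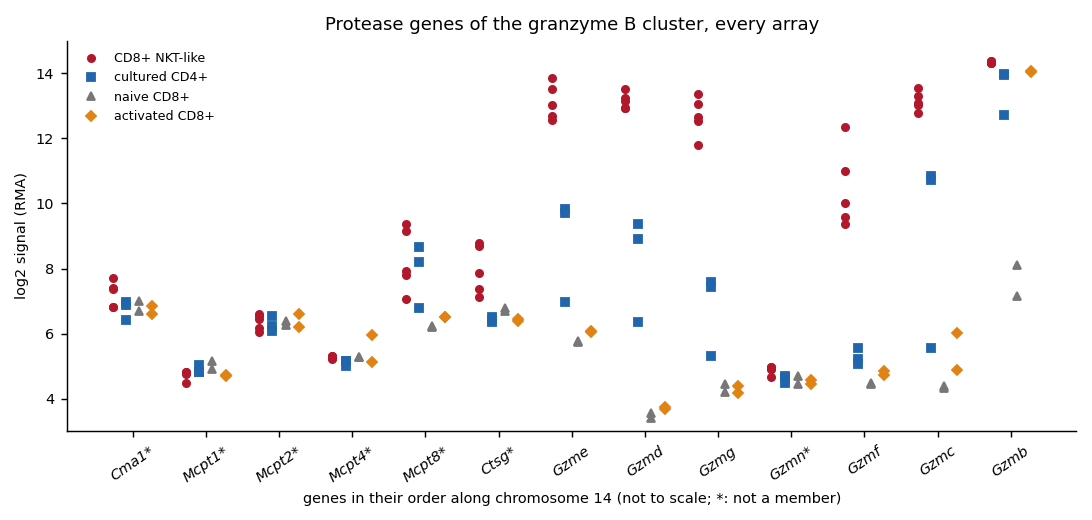
Log2 signal (vertical axis) of 13 protease genes on each of the 12 arrays, with the genes in their order along chromosome 14 on the horizontal axis (not to scale, asterisks on genes that are neither perforin nor one of the granzymes followed) and colours and symbols for the 4 groups. The CD8+ NKT-like arrays of Gzme, Gzmd, Gzmg, Gzmf, Gzmc and Gzmb lie from 9.38 upward, whereas Gzmn among them lies under 5 on all 12 arrays.

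Start-site windows of some of these genes are printed in part below. The 5 genes Gzmc to Gzmg, each of them higher in CD8+ NKT-like than in naïve cells, also resemble each other there. RefSeq windows of GRCm38.p6, 300 bases long from 250 before to 50 after a start site, were found for all 10 genes and for Gzmn. The windows of Gzmc, Gzmd, Gzme, Gzmf and Gzmg shared 244 to 281 identical bases in each of their 10 pairwise alignments, and a run of 20 bases (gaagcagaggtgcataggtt) was common to all 5. Against the other windows they shared 10 to 183 bases. The 150 bases before the start site follow, all read on the minus strand except Prf1, with matches to the searched motifs in capitals. They are chr14:56132594-56132743 for Gzmd, chr14:56159580-56159729 for Gzmg, chr14:56234658-56234807 for Gzmc, chr14:56262335-56262484 for Gzmb, chr14:56174600-56174749 for Gzmn and chr10:61297686-61297835 on the plus strand for Prf1.
Gzmd: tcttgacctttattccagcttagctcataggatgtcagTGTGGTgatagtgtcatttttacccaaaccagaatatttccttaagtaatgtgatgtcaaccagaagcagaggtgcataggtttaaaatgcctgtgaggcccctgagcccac
Gzmg: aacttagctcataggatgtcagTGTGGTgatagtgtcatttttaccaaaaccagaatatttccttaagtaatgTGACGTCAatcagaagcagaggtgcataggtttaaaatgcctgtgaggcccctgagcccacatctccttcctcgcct
Gzmc: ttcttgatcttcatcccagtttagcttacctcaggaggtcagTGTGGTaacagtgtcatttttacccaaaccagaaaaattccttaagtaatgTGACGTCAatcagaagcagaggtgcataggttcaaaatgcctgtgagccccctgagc
Gzmb: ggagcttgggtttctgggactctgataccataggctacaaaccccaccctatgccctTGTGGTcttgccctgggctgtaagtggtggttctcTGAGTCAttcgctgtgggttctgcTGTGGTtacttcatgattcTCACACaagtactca
Gzmn: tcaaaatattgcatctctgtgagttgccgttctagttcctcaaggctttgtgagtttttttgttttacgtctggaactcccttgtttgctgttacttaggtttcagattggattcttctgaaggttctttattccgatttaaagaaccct
Prf1: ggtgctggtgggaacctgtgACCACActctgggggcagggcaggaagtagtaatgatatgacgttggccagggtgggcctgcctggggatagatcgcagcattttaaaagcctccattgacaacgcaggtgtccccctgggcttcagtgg

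Matches were counted over whole windows, which include bases outside the printed lines and genes with no printed line. TGTGGT, or its reverse complement ACCACA, is the core bound by runt-domain factors. It occurs in a window of 9 of the 10 genes, Gzmk being the exception, against 16.8% of all 32851 windows. TGACGTCA, the cyclic AMP response element, occurs in Gzmc, Gzmf and Gzmg and in 1.79% of all windows. The AP-1 element TGANTCA occurs in Gzmb alone of the 10 and in 7.81% of all. TCACAC, a half-site of T-box factors such as Eomes, occurs in Gzmb, Gzmk and Gzmm and in 14.5% of all, and the STAT element TTCNNNGAA in Gzmb and Gzmm and in 8.30% of all. Both strands were searched, and no matches of different motifs overlap in the printed lines. The motifs were chosen after the sequences had been read, the 5 resembling windows are not independent of each other, and a match is no evidence of binding. None of the 5 motifs was found in the window of Gzmn.

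Gzmm went the other way. It read 6.87, 6.97, 7.05, 6.92 and 6.999 in CD8+ NKT-like arrays, 6.85, 6.57 and 6.66 in cultured CD4+ arrays, 8.10 and 7.16 in naïve arrays and 6.79 and 6.75 in activated arrays. Both naïve arrays lay above all others, the second of them by little. All values except that of the first naïve array lie within the range of the genes not expected in T cells. The order of the groups, and the direction and size of the ratios that follow, therefore depend on array background and on the first naïve array. Cultured CD4+ cells were called lower at 0.522-fold of naïve cells (0.379 to 0.720, q = 0.0041), or 0.722-fold and not called without the first naïve array (q = 0.026). It was likewise not called without the second or the third cultured CD4+ array. CD8+ NKT-like cells at 0.630-fold (0.469 to 0.845, q = 0.012) and activated cells at 0.550-fold (0.387 to 0.782, q = 0.022) did not pass, but were called without the second naïve array (q = 0.00064 and q = 0.001).

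Gzma, Gzmb, Gzmk, Gzmm and Prf1 were all higher in the first naïve array than in the second. The 2 arrays also differed in the summed signal of 4 T cell markers, 11600 and 7290, and of the 2 CD8 genes, 10100 and 3820, and in the opposite direction in Klf1, at 10.56 and 11.63, while Hba-a1 and Alas2 stayed between 5.38 and 5.56 in both. Summed over the 10 genes the signal was 1710 and 939. The part of cell composition in this was not tested.

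When cultured CD4+ cells were compared with naïve CD8+ cells, 6 of the 10 genes were higher and 1 was lower, beside 11.6% higher and 5.58% lower over all genes. The higher ones were Gzma, Gzmb, Gzmc, Gzmd, Gzme and Gzmg. Gzma was 17.1-fold higher (6.76 to 43.2, q = 0.00043), Gzmc 25.7-fold (4.10 to 161, q = 0.0076), Gzmd 26.3-fold (9.76 to 70.7, q = 2.7e-04), Gzme 8.43-fold (2.90 to 24.5, q = 0.0043) and Gzmg 5.49-fold (2.20 to 13.7, q = 0.006). The median log2 difference over the 10 genes was 2.77. The count rests on few arrays. It was 3 without the second or the third cultured CD4+ array or the first naïve array, 2 without the second naïve array, and 3 with Benjamini-Hochberg adjustment. Gzmc also lost its call when any single CD8+ NKT-like array was left out. Those arrays are in neither group but enter the shared estimate of spread.

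The cultured CD4+ group had the widest spread of the 4 groups in Gzma, Gzmb, Gzmc, Gzmd, Gzme and Gzmg, with an SD of 3.01 for Gzmc, but not in Prf1, Gzmf, Gzmk or Gzmm. The first array read 5.56 for Gzmc where the others read 10.83 and 10.71, and it was likewise the lowest for Prf1, Gzma, Gzmb, Gzmd, Gzme, Gzmf and Gzmg, and by little for Gzmk. Its summed signal over the 10 genes was 9370, against 31600 and 30700. Other genes moved with it. Serpinb9 read 7.25 there against 9.28 and 9.25, and Ifng 6.84 against 11.65 and 11.52. The summed T cell markers were 13000, 12800 and 13500, so the array did not stand apart in them. Without the first array cultured CD4+ cells exceeded naïve cells by 85.8-fold for Gzmc, 49.8-fold for Gzmd, 30.2-fold for Gzma, 16.0-fold for Gzme and 9.07-fold for Gzmg, and 6 genes were still called higher. Without the second array Gzmc was 13.8-fold and without the third Gzme was 5.99-fold higher.

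Set directly against cultured CD4+ cells, CD8+ NKT-like cells had 6 of the 10 genes higher and none lower, where 1.21% of all genes were higher and 1.80% lower (limma). At an unadjusted p under 0.05 the counts were 9 and 0. The 6 were Prf1, Gzmd, Gzme, Gzmf, Gzmg and Gzmk. Gzmg was 59.9-fold higher (28.9 to 125, q = 3.4e-05), Gzmf 36.1-fold (15.7 to 83.0, q = 2.4e-04) and Gzme 19.7-fold (8.41 to 46.4, q = 0.001). Gzmc, 17.4-fold higher, did not pass (3.99 to 75.4, q = 0.031), and Gzmm differed by 1.21-fold (0.932 to 1.56, q = 0.48). The differences shrank without the first cultured CD4+ array, to 36.2-fold for Gzmg, 16.2-fold for Gzmd, 10.4-fold for Gzme, 5.20-fold for Gzmc, 2.03-fold for Gzma and 1.30-fold for Gzmb. Without the second or the third array they grew, most for Gzmc, whose log2 difference went from 4.12 to 5.02 and 4.96 (32.4-fold without the second). With the first cultured CD4+ array left out Gzmc was called as well (q = 0.00067), which made 7 genes. This is the comparison in which both groups had been cultured by the same protocol.

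**Figure D3:**
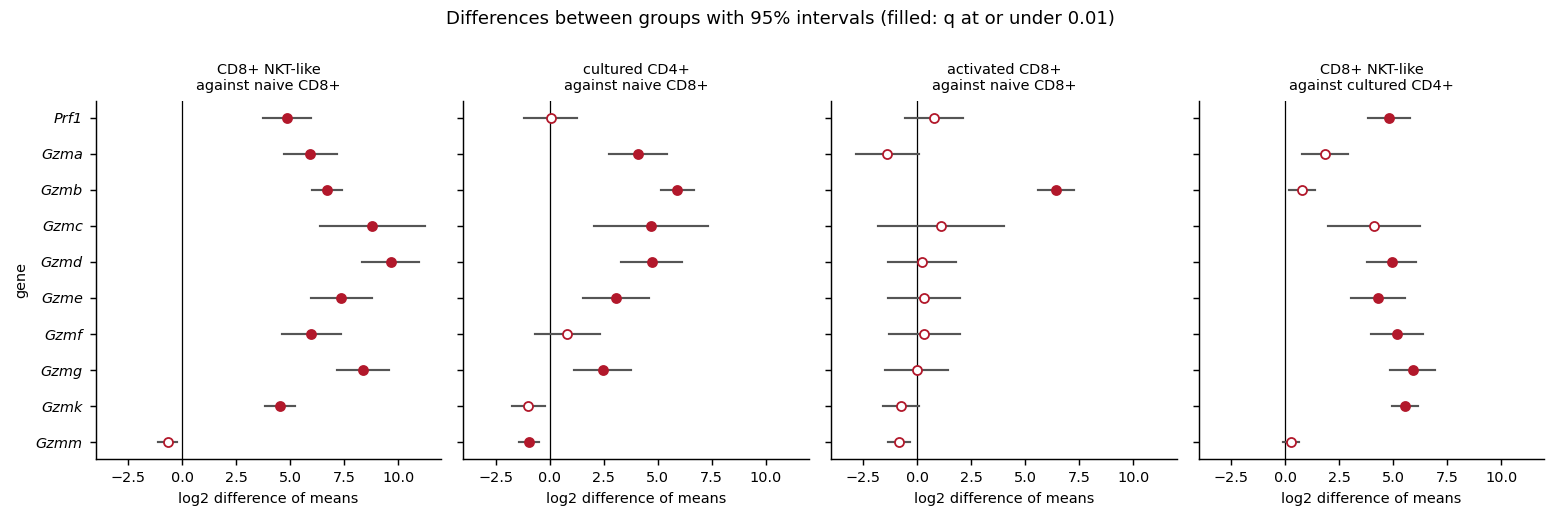
Difference of the group means in log2 units (horizontal axis) for each of the 10 genes (vertical axis) in 4 comparisons, with 95% intervals from the fit and filled points where q was 0.01 or less. Prf1, Gzmd, Gzme, Gzmf, Gzmg and Gzmk are filled for CD8+ NKT-like cells against both naïve and cultured CD4+ cells. In activated against naïve cells Gzmb alone is filled.

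Activation with soluble antibodies raised 1 of the 10 genes over naïve cells, Gzmb, and lowered none, where 4.35% of all genes were higher and 2.68% lower (limma). At an unadjusted p under 0.05 the counts were 1 and 1. The other 9 genes had intervals that reached from below to above 1, apart from Gzmm, and the interval of Gzmc was wide (2.15-fold, 0.287 to 16.1, q = 0.43). CD8+ NKT-like cells exceeded activated cells in 8 genes and were lower in none, beside 3.34% and 0.934% of all genes, and the counts at an unadjusted p under 0.05 were 8 and 0. The 2 that did not pass were Gzmb and Gzmm. Gzmg was 337-fold (146 to 778, q = 7.7e-06), Gzmc 208-fold (38.6 to 1120, q = 0.0015), Gzme 135-fold (50.6 to 358, q = 7.2e-05) and Gzmf 50.8-fold (19.6 to 132, q = 2.8e-04) higher. Cultured CD4+ cells exceeded activated CD8+ cells in 2 genes, Gzma by 44.6-fold (17.7 to 113, q = 0.00053) and Gzmd by 22.7-fold (8.43 to 61.1, q = 0.0027), and were lower in none, beside 1.48% and 0.319% of all genes, and the counts at an unadjusted p under 0.05 were 5 and 0. Without the first cultured CD4+ array these became 79.0-fold and 43.0-fold and 5 genes were called, without the second or the third 1 gene was, and without the second activated array none was.

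The 5 CD8+ NKT-like arrays differed little in Gzma and Gzmb, at the top of the scale, and most in Gzmf, which ran from 9.38 to 12.33. The fifth array was the highest of the 5 for Prf1, Gzmc, Gzmd, Gzme, Gzmf and Gzmg. The third array was the lowest for Gzmc, Gzmd, Gzme and Gzmf, yet it was the second highest for Prf1 and Gzmg and the highest for Gzma, Gzmk and Gzmm. With 5 arrays these are descriptions of single cultures. Leaving out any of them kept 9 genes called against naïve cells.

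Genes that serve the granule rose with perforin and the granzymes in part. Of 26 measured genes for granule packaging, maturation and release, 11 were higher and 1 lower in CD8+ NKT-like than in naïve cells, beside 11.0% and 6.61% of all genes, with a median log2 difference of 0.89. Sytl2, a partner of Rab27a at the granule, rose 8.94-fold (5.66 to 14.1, q = 2.4e-05), Cst7, which encodes the cathepsin inhibitor cystatin F, 6.25-fold (3.08 to 12.7, q = 0.0011), and Rab27a, a small GTPase needed for granule docking, 5.97-fold (3.93 to 9.07, q = 5e-05). Syt7, a calcium sensor of vesicle fusion, was lower at 0.713-fold (0.584 to 0.871, q = 0.0089). Against cultured CD4+ cells 3 of the 26 were higher and 1 lower, beside 1.21% and 1.80% of all genes. Sytl2 was 5.56-fold higher (3.73 to 8.28, q = 2.4e-04) and Ctsw, a lymphocyte cathepsin, 4.21-fold (2.63 to 6.74, q = 0.0024), whereas Stx11, a syntaxin of granule fusion, was lower at 0.406-fold (0.306 to 0.539, q = 0.0019).

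Several serpins listed here as granzyme inhibitors were higher as well. Of 9 measured on this list, 3 were higher in CD8+ NKT-like than in naïve cells and none was lower, beside 11.0% and 6.61% of all genes. At an unadjusted p under 0.05 in limma the counts were 4 and 1. Serpinb6b rose 14.4-fold (6.23 to 33.3, q = 3.2e-04), Serpinb9 10.8-fold (5.41 to 21.7, q = 2.0e-04) and Serpinb6a 8.98-fold (5.52 to 14.6, q = 3.6e-05). The other 6 left the median log2 difference of the list at -0.13. Serpinb9, which inhibits granzyme B, read from 10.67 to 11.26 in CD8+ NKT-like arrays, 10.50 and 10.24 in activated arrays, 7.25, 9.28 and 9.25 in cultured CD4+ arrays and 7.71 and 7.12 in naïve arrays. It was thus high in both stimulated CD8+ groups. Activated cells were called higher than naïve cells in 2 of the 9 and lower in none, beside 4.35% and 2.68% of all genes. These were Serpinb9 (7.76-fold, 3.38 to 17.8, q = 0.0042) and Serpinb6b (10.5-fold, 3.87 to 28.7, q = 0.0052). Against cultured CD4+ cells, CD8+ NKT-like cells were higher in 2 of the 9 and lower in none, beside 1.21% and 1.80% of all genes. Serpinb9 was higher by 4.78-fold (2.61 to 8.77, q = 0.0066) and Serpinb6a by 2.87-fold (1.87 to 4.39, q = 0.0084).

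**Figure D4:**
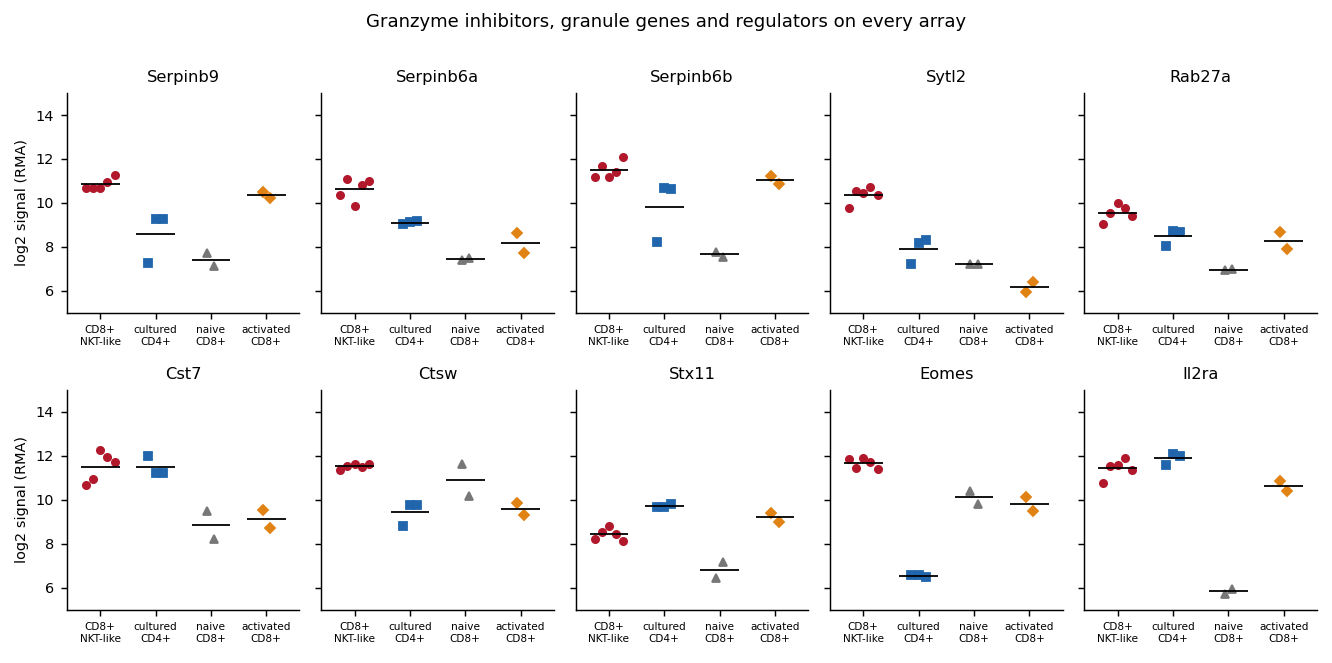
Log2 signal (vertical axis) on each of the 12 arrays, by group (horizontal axis), with replicates in order from left to right. Shown are 3 serpins listed as granzyme inhibitors, 5 granule genes and 2 regulators, with a black line at the group mean. Eomes lies between 11.41 and 11.92 in the CD8+ NKT-like arrays and between 6.50 and 6.56 in the cultured CD4+ arrays, whereas Il2ra is high in all 3 stimulated groups.

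Of 21 measured regulators of these genes, 8 were higher and 3 lower in CD8+ NKT-like than in naïve cells, beside 11.0% and 6.61% of all genes, with a median log2 difference of 0.64. Ifng, the gene of interferon-γ, rose 51.2-fold with a wide interval (6.70 to 391, q = 0.0048), Il2ra, a chain of the IL-2 receptor, 48.4-fold (32.6 to 71.9, q = 1.2e-07) and Il2rb, another chain, 7.08-fold (3.91 to 12.8, q = 2.6e-04). The lower ones were Ifngr2 (0.440-fold, q = 9.2e-04), Creb1 (0.445-fold, q = 0.0025) and Irf1 (0.534-fold, q = 0.009). Against cultured CD4+ cells 1 of the 21 was higher and 3 were lower, beside 1.21% and 1.80% of all genes. The higher one was Eomes, a T-box factor that acts on perforin and granzyme genes, by 35.2-fold (26.7 to 46.3, q = 8.9e-08). It read from 11.41 to 11.92 in CD8+ NKT-like arrays and 6.56, 6.56 and 6.50 in cultured CD4+ arrays, but 10.39 and 9.82 in naïve and 10.13 and 9.49 in activated arrays. The naïve and activated cells held Eomes transcript, and Prf1 and Gzmk were low in them. Any part of Eomes in these values was not tested. Irf4 (0.189-fold, q = 6.9e-04), Stat5a (0.412-fold, q = 0.0038) and Rbpj (0.449-fold, q = 0.0045) were lower in CD8+ NKT-like than in cultured CD4+ cells.

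The genes whose values over the 12 arrays were most like those of Prf1 were Bspry, Emilin2, Abcb9, Sh2d5 and Tnfrsf1b, with Pearson's r from 0.960 to 0.973. For Gzmd they were Ifitm1, Fam20a, Lrrk1, P2ry14 and Ifitm2, with r from 0.984 to 0.994. Each gene of the first set had its highest mean in CD8+ NKT-like cells, with the other groups close together. Emilin2 had a mean of 11.19 there against 7.02 in cultured CD4+, 7.43 in naïve and 7.57 in activated cells. The gap was smaller for Tnfrsf1b, at 9.67, 8.51, 8.25 and 8.45 in the same order of groups. The second set was also raised in cultured CD4+ cells, as with Ifitm1 at 13.85, 10.19, 7.36 and 7.92. These correlations run over arrays of 4 groups and mostly describe the order of the group means.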

How the data were processed

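Total RNA of 12 samples was hybridized to 1 array each. The authors deposited log2 values made with RMA, which corrects background, normalizes by quantiles and summarizes probe sets. Its version, and whether all arrays were normalized together, are not given in the sources used here. The labels give 2 µg of labelled RNA. Of the probe sets, 64 controls were left out and 45037 tested, of which 34945 have 1 gene symbol, 932 several and 9160 none. Where several probe sets shared a gene, the brightest on average over all arrays stood for it, and one that binds several sequences was used only where the gene had no other. With limma 3.58.1 under R 4.3.3, a linear model with a term per group was fitted over the 12 arrays (8 residual and 3.03 prior degrees of freedom) for 6 comparisons, and q-values after Storey were computed over all probe sets tested, with 0.01 as threshold. The procedure was tested on simulated data. Array medians ran from 6.23 to 6.42, within-group correlations from 0.974 upward, and the number of arrays, 2 to 5 per group, limits the precision. The labels number replicates but do not say that they came from separate mice, so q-values measure the spread between these samples. All 10 genes, up to 4 of the largest passing differences in each gene list with any in the opposite direction, and the 5 genes most like Prf1 and Gzmd were named. The genes, lists and tests were chosen with earlier results of these data known, and the study itself singled out several of these genes on the same arrays, so counts over them are not independent evidence. Promoter windows were aligned with Biopython 1.88.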

Additional observations from a re-analysis of the deposited data

Results flagged for a closer look

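1 probe set annotated to both Gzmd and Gzme was left out because it has no single gene, and it carried a strong signal outside the values used. Its log2 mean was 13.37 in CD8+ NKT-like cells and 4.33 in naïve cells, a difference of 9.04 (SE 0.69, q = 5.3e-06). Cultured CD4+ cells lay at 9.10 and activated cells at 4.15. The order of the groups was that of the single-gene probe sets of Gzmd and Gzme.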

How the results depend on the processing

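For each of the 6 comparisons the fit was repeated with 9 other settings and with each of the 12 arrays left out. Of 1260 repeated values of single genes, 1197 kept their direction and their side of the threshold, 48 lost a call, 15 gained one, and none that was called in either fit reversed. The count of genes higher in CD8+ NKT-like than in naïve cells stayed at 8 or 9. Counts that moved by more than 1.5 times are these. For cultured CD4+ against naïve cells, the higher count of 6 was 3 with Benjamini-Hochberg adjustment, and the lower count of 1 was 0 with only the 2 groups compared, 2 at a q threshold of 0.05 and 0 with median centring. The lower count of 0 became 1 at a q threshold of 0.05 for CD8+ NKT-like and for activated against naïve cells, and 1 with only probe sets at or above the median for the former. For cultured CD4+ against activated cells, the higher count of 2 was 0 with only the 2 groups compared and 4 at a q threshold of 0.05. With 1 array left out at a time, the counts ran from 2 to 6 higher and 0 to 1 lower for cultured CD4+ against naïve cells, from 0 to 5 higher for cultured CD4+ against activated cells, from 6 to 8 higher for CD8+ NKT-like against activated cells, from 6 to 7 higher for CD8+ NKT-like against cultured CD4+ cells, and from 0 to 1 lower for CD8+ NKT-like and for activated against naïve cells. The cause of these changes was not tested, beyond the smaller number of arrays where one was left out. Median centring shifted the median of all genes by 0.12 for CD8+ NKT-like and 0.13 for cultured CD4+ against naïve cells.

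With the replicate number as a replicate block, 8, 2, 5, 7 and 0 genes were higher for CD8+ NKT-like against naïve, cultured CD4+ against naïve, CD8+ NKT-like against cultured CD4+, CD8+ NKT-like against activated and cultured CD4+ against activated cells, and none was lower in cultured CD4+ than in naïve cells. Samples with the same number correlated at -0.50 to 0.28 in their deviations (median -0.04 over 13 pairs, 3 of them above 0.1). In a group of 2 arrays the deviations are mirror images of each other. These correlations therefore cannot show whether samples with the same number share a mouse or a day.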
